A study of Mus musculus with 30 samples.

Results

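The samples described here are 8 of the 30 liver samples of a mouse study of cadmium exposure before birth, and they are all of its newborn livers. They come from female CD-1 mice, an outbred stock, at postnatal day 1 (age 1 day). Control livers (4 samples) carry no treatment beyond that name in the labels, and exposed livers (4 samples) are labelled with exposure to 500 ppb CdCl2, which the study's title places in gestation. The labels do not give the route, the days of exposure or the litters, so pups of 1 dam may be among the replicates, and the p-values below measure the spread between these samples. The question was which transcripts differed between exposed and control livers on the first day of life.

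Cadmium is a metal that is taken up by routes meant for zinc, iron and manganese and is held in liver bound to metallothionein. At birth the liver still makes blood cells, while its hepatocytes switch on the enzymes of urea, glucose and ketone production and of drug metabolism. Its capillaries are lined by sinusoidal endothelium, and its resident macrophages are the Kupffer cells.

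Each library held between 24424797 and 29633727 reads in the 14259 listed genes. The 14059 genes that reached 10 normalised counts in 4 or more libraries were tested with limma, a linear model that shares its estimate of spread across genes. Differences below are exposed minus control on the log2(normalised count + 1) scale, ± SE, with n = 4 in each group, and levels are normalised counts in the order of replicates 1 to 4. No gene passed an adjusted p of 0.05 (Benjamini-Hochberg), so the background share was 0.0% of genes, and the smallest adjusted p was 0.223. At an unadjusted p under 0.05 limma gave 863 genes with the higher mean in exposed livers (6.14%) and 1176 with the lower mean (8.36%), where chance would give 703 in all. Fitting the whole reads with limma voom instead also gave 0 adjusted calls, with 870 and 1166 genes at the unadjusted threshold. The split between directions depended on the scaling, because with every library set to the same total the 2 numbers were 1034 and 714. It also depended on single livers: without Control 2 the numbers were 1422 and 1803, without Control 4 they were 446 and 662, and without Exposed 2 the higher set held 557. Groups that did not overlap at all were found for 414 genes above (2.94%) and 677 below (4.82%) the controls. These 2 numbers became 835 and 1037 without Control 1, 1154 and 1799 without Control 2, and 858 (higher) without Exposed 3. Separation is easier to reach with 1 liver fewer. A rise was therefore fixed in advance and by itself does not show dependence on that liver. Because no gene was called, the genes below are described by their values and by whether the groups overlapped.

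Among genes with an unadjusted p under 0.01, groups that did not overlap and a mean of at least 50 normalised counts, Dio1 had the lowest difference. Dio1 (chr4:107291465-107307169 on mm10) encodes the deiodinase that activates thyroid hormone in liver. Its levels were 318, 118, 234 and 143 normalised counts in control livers and 10.4, 4.36, 98.6 and 12.7 in exposed livers. Exposed 1, 2 and 4 were far below every control, and Exposed 3 lay just under the lowest control. The log2 difference was -3.48 ± 0.79, with an adjusted p of 0.244 in limma. When Exposed 3 was left out, the same fit gave -4.33 and an adjusted p of 0.0108. Leaving out the exposed liver closest to the controls favours a lower p, so this value is no added support for a difference. Dio1 is induced by thyroid hormone, and other members of the list of glucocorticoid and thyroid hormone genes were read beside it. Klf9, a zinc finger factor that both hormones induce, had 1573, 1084, 1032 and 1755 counts in controls and 855, 632, 987 and 1064 in exposed livers, and the groups overlapped (-0.61 ± 0.21). Tsc22d3, the glucocorticoid-induced leucine zipper, was at 562, 661, 636 and 899.6 against 428, 543, 526 and 498, with all 4 exposed livers below the controls (-0.45 ± 0.15). The thyroid hormone receptors gave -0.12 ± 0.12 for Thra and 0.38 ± 0.24 for Thrb, both with overlapping groups. In the whole list 9 of 20 genes were higher and 11 lower, and 3 reached the unadjusted threshold, all lower (15.0% against 8.36% of all genes).

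Tff3, a secreted trefoil peptide best known from mucous epithelia, showed 805, 2561, 1772 and 1498 counts in controls and 217, 257, 375 and 624 in exposed livers. All exposed livers were lower, although Exposed 4 came within reach of Control 1 (-2.17 ± 0.40). Mtmr11, a member of the myotubularin family of phosphoinositide phosphatases, had 81.2, 275, 195 and 142 against 38.1, 53.2, 54.3 and 43.5, again without overlap (-1.73 ± 0.34). Bex1, a small adaptor protein, was at 1265, 1169, 1771 and 1883 in controls and 885, 603, 891 and 668 in exposed livers, so the highest exposed liver stood below the lowest control (-0.99 ± 0.19). Akr1c19, an aldo-keto reductase, had 258, 242, 202 and 219 against 110.1, 139.5, 124 and 128 (-0.87 ± 0.15). Its 4 exposed values lay close together and well under the controls. Slc37a2, a sugar-phosphate carrier found in macrophages, gave -1.29 ± 0.34, and Ces1g, a carboxylesterase of hepatocytes, gave -1.12 ± 0.29, in both cases with no overlap.

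On the higher side the genes of largest difference were read at low levels. Trim6 (chr7:104218793-104235152 on mm10), a ubiquitin ligase of interferon signalling, had 61.4, 48.2, 29.6 and 51.7 counts in controls and 279.9, 164, 81.0 and 200.5 in exposed livers. Exposed 3 was the lowest of its group and still above every control (1.82 ± 0.37). Nlrc5 (chr8:94434356-94527272 on mm10), the transactivator of MHC class I genes, was at 188, 152, 99.4 and 73.0 against 277, 327, 364 and 499, and every exposed liver exceeded every control (1.57 ± 0.29). Sult5a1, a sulfotransferase, had 63.3, 137, 275 and 172 against 373, 433, 505 and 355, with the wider spread in the controls (1.53 ± 0.37). The noncoding genes Gm29571 and Gm42711 followed at 1.49 ± 0.43 and 1.33 ± 0.35, without overlap, and Gm29571 is an antisense gene whose reads cannot be told apart from those of the other strand. Adarb2, a brain-enriched member of the RNA-editing deaminase family, was at 31.2, 27.1, 21.0 and 16.4 against 61.0, 63.7, 70.2 and 98.9. Its lowest exposed liver was well above the highest control (1.59 ± 0.29). Zmynd15, a histone deacetylase-associated repressor, showed 38.7, 54.2, 51.6 and 40.2 against 118, 103, 139.5 and 81.6 (1.23 ± 0.23). Cacna1g, a T-type calcium channel, had 57.6, 79.5, 69.8 and 51.7 against 135, 126, 115 and 198 (1.13 ± 0.23). Neither gene's groups overlapped. Further separated genes were Gabbr2, a GABA receptor subunit, at 1.28 ± 0.28, Grin2c, an NMDA receptor subunit, at 1.19 ± 0.32, and Sgcz, a sarcoglycan, at 1.09 ± 0.30. Cep162, a protein of the cilium base, was narrow in both groups, with 143, 183, 153 and 150.2 in controls and 265, 258, 252 and 258 in exposed livers (0.72 ± 0.14).

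**Figure D1:**
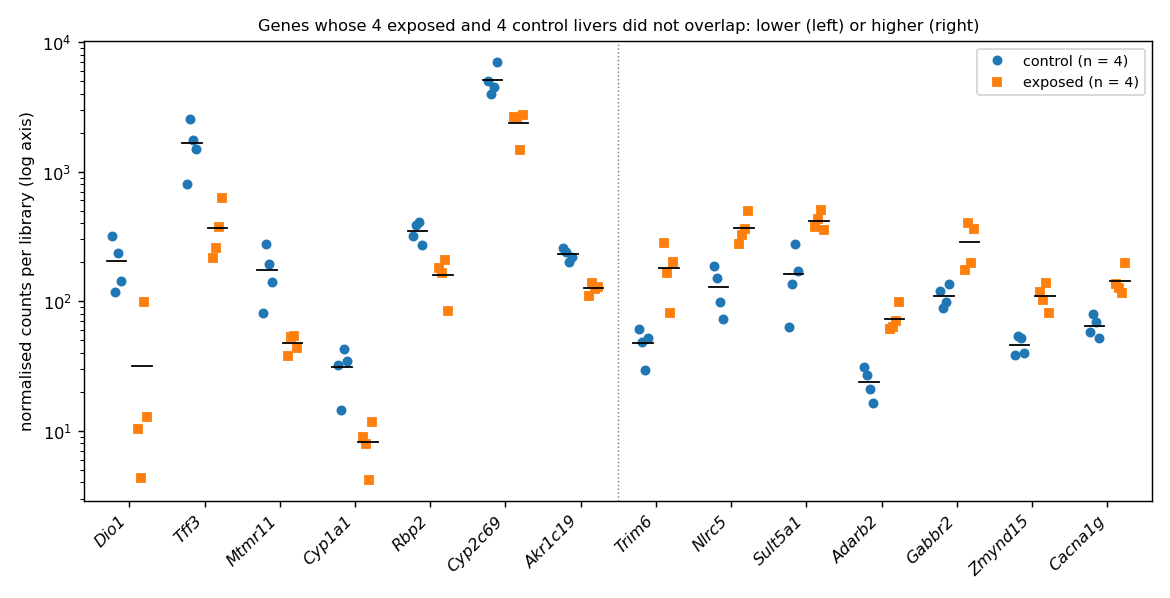
Normalised counts on a log axis for 14 genes, with circles for the 4 control and squares for the 4 exposed livers and a line at each group's mean. The groups did not overlap for any gene shown; Exposed 3 stood apart from the other exposed livers for Dio1, with 98.6 counts against 4.36 to 12.7.

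Long genes as a class lay higher in the exposed livers. The 415 tested genes spanning more than 300 kb of the genome had a median difference of 0.31, and 359 of them were higher, against a median of -0.01 over all genes. Their mean log2 level was 8.13, 8.55, 7.91 and 7.61 in Controls 1 to 4 and 8.28, 8.56, 8.43 and 8.20 in Exposed 1 to 4. Control 2 therefore lay with the exposed livers, and Controls 3 and 4 were the lowest. The 1701 genes of at most 5 kb had a median of -0.07. Whether the length pattern has a part in the values of Sgcz, Nkain2 (0.99 ± 0.30), Cacna1g or the chromatin genes below was not tested. Nor was it tested for the VEGF and angiopoietin list and the sinusoidal markers below. Their median spans were 51.3 and 41.6 kb, against 23.9 kb over all genes tested. Genes of 20 to 50 kb had a median difference of -0.02, and those of 50 to 100 kb had 0.03.

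Enzymes of amino acid breakdown and of the urea cycle were lower in nearly every case. Of 44 measured enzymes of amino acid breakdown, 42 were lower and 2 higher in exposed livers, with a median of -0.40. The unadjusted threshold was reached by 18, all lower (40.9% against 8.36% of all genes). Leaving out single livers moved the 18 to between 13 (without Control 4 or Exposed 1) and 25 (without Control 2). The urea cycle disposes of the nitrogen that these enzymes release. Its list also holds carriers and the glutamine enzymes Gls2 and Glul, and all 10 members were lower (median -0.42). Of these members, 4 met the unadjusted threshold (40.0% against 8.36% of all genes). The number was 8 without Control 2, and 3 without Control 1, Control 4, Exposed 1 or Exposed 2 and with libraries scaled to the same total. In a bulk liver sample, fewer hepatocytes and less of each RNA per hepatocyte cannot be told apart. The defining hepatocyte markers were themselves lower in 16 of 19 genes (median -0.41, -0.26 without Control 4), and their summed level was 1830571 to 3229774 counts in controls and 1780284 to 2316180 in exposed livers. The 26 late erythroid markers summed to 271719 to 443779 counts in controls and 290572 to 631324 in exposed livers. With the mean of the late erythroid list as a covariate, the medians were -0.43 for amino acid breakdown and -0.49 for the urea cycle.

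Ahcy, which hydrolyses S-adenosylhomocysteine and so keeps the methylation cycle running, had 4070, 1521, 2712 and 2856 counts in controls and 419, 488, 1607 and 557 in exposed livers. Exposed 1, 2 and 4 were several-fold below every control, whereas Exposed 3 lay just above Control 2 (-2.01 ± 0.45). Without Exposed 3, its difference was -2.44 with an adjusted p of 0.0455 in limma. As for Dio1, the liver left out was the exposed liver closest to the controls, and this value is no added support. Bhmt, which remethylates homocysteine with betaine, was at 46766, 38581, 38769 and 53773 against 33976, 30691, 25841 and 33045, with no overlap (-0.52 ± 0.16). Mut, the vitamin B12-dependent mutase at the end of propionate breakdown, had 1674, 1187, 1829 and 2061 against 853, 1060, 1046 and 965 (-0.76 ± 0.17). All exposed livers lay under the lowest control. Enzymes of branched-chain amino acids gave -0.55 ± 0.15 for Bckdhb, a subunit of the branched-chain ketoacid dehydrogenase, -0.48 ± 0.13 for Ivd of leucine breakdown and -0.50 ± 0.14 for Mccc1, a carboxylase of the same route. In the urea cycle Arg1, arginase, which releases urea, had 10026, 4923, 7294 and 14142 against 3920, 3485, 3733 and 4534 and was the 1 member without overlap (-1.12 ± 0.27). Cps1, which fixes the ammonia, gave -1.14 ± 0.29, with 1 exposed liver just above Control 2. Otc, which makes citrulline, had 5279, 3893, 3224 and 3930 against 2249, 3716, 2733 and 2801, and the groups overlapped (-0.51 ± 0.18). Ass1, the next enzyme, was at 9880, 2787, 5559 and 8537 against 3553, 2521, 3035 and 5014, with Controls 1 and 4 high and Control 2 among the exposed livers (-0.82 ± 0.38).

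In carbohydrate metabolism the genes of glycolysis and of glucose output were mostly lower. Among 27 genes of glycolysis and lactate, 20 were lower and 7 higher (median -0.21, -0.13 without Control 2), with 7 lower (25.9% against 8.36% of all genes) and 1 higher at the unadjusted threshold. Leaving out single livers moved the 7 to between 3 (without Control 4) and 8 (without Control 2). Pgk1 (phosphoglycerate kinase, the first ATP-yielding step) had 3079, 2156, 2964 and 3247 counts in controls and 1723, 1503, 1600 and 1936 in exposed livers. No exposed liver reached the lowest control (-0.75 ± 0.15). Tpi1, triose phosphate isomerase, was at 6292, 6010, 6237 and 7456 against 5291, 4431, 4563 and 5504, also without overlap (-0.39 ± 0.13). Pdha1, a subunit of the pyruvate dehydrogenase complex that feeds pyruvate into the citric acid cycle, had 1419, 1822, 1618 and 1861 against 1151, 1124, 1128 and 1099 (-0.57 ± 0.11). Pdk2, a kinase that switches the complex off, had 699, 710.0, 497 and 776 against 363, 434, 343 and 306 (-0.88 ± 0.16). Pdk4, the fasting-induced kinase, had 409.9, 1029, 414 and 465 against 273, 279, 395 and 382 (-0.70 ± 0.28). For all 3 genes every exposed liver was below every control. Of 18 genes of gluconeogenesis and glucose output 12 were lower (median -0.19, -0.32 without Control 2 and -0.11 without Control 4). The unadjusted threshold was met by 1 lower gene (5.56% against 8.36% of all genes). This number was 6 without Control 2. It was 0 without Exposed 1 or Exposed 2 and with libraries scaled to the same total. G6pc, which releases free glucose, had 18670, 4476, 5512 and 4940 against 7826, 6561, 7283 and 15227, and Pck1, the committed step of gluconeogenesis, 48012, 13531, 25607 and 17082 against 12765, 18203, 20576 and 25510. Control 1 was the highest of the 8 livers for both. Of 15 glycogen genes 10 were lower and 5 higher (median -0.18, -0.26 without Control 1 and -0.08 without Control 4). The unadjusted threshold was met by 2 lower genes (13.3% against 8.36% of all genes; 5 without Control 1). Gyg, the primer protein glycogenin, gave -0.54 ± 0.15 and Ugp2, which makes UDP-glucose, gave -0.40 ± 0.13, both without overlap.

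In lipid metabolism the ketogenesis and peroxisome list was lower in 26 of 29 genes (median -0.24). At the unadjusted threshold 8 were lower (27.6% against 8.36% of all genes) and 1 higher (3.45% against 6.14%). The number of lower genes was 5 without Control 3 and 2 without Control 4 or Exposed 1. Phyh, the peroxisomal enzyme that starts phytanic acid breakdown, was at 14887, 14510, 13157 and 15576 counts in controls and 8540, 10828, 11109 and 8678 in exposed livers, a clean separation (-0.58 ± 0.14). Pnpla2, the first lipase of triglyceride breakdown, had 1027, 729, 683 and 922 against 460.0, 539, 537 and 569.7, and all exposed livers were lower (-0.66 ± 0.15). In the synthesis list 20 of 29 genes were lower (median -0.15, -0.05 without Control 4), and its regulator Srebf1 and the enzyme Fasn were nearly level at 0.00 ± 0.22 and 0.14 ± 0.23. Scd2, a desaturase of fetal liver, was at 755, 1225, 1218 and 1161 against 755, 751, 769 and 714. Control 1 held as little as the exposed livers, and the other controls held more (-0.52 ± 0.16). Bile acid genes were divided, with 11 of 24 genes higher and 13 lower and a median of -0.02 that changed sign under other settings. Cyp7b1, the enzyme of the alternative route that acts on oxysterols, had 137, 91.4, 86.0 and 108 against 189.8, 214, 144 and 208, all exposed livers being higher (0.84 ± 0.21). Cyp7a1, the rate-limiting enzyme of the classical route, had 489, 392, 732 and 681 against 479, 376, 311 and 328, with overlap (-0.59 ± 0.21). Cyp8b1, which directs that route to cholic acid, gave -0.50 ± 0.18. The bile salt export pump Abcb11 was at 0.06 ± 0.19.

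In the cytochrome P450 list 38 of 53 genes were lower (median -0.26, with -0.17 without Exposed 1 and -0.46 without Control 2 as the extremes when 1 liver was left out), and 11 reached the unadjusted threshold, all of them lower (20.8% against 8.36% of all genes). Many of these genes have near-identical neighbours, so reads may be shared within the Cyp2c and Cyp4a clusters. Cyp2c69 had 4977, 3986, 4523 and 6996 counts in controls and 2664, 2616, 1478 and 2748 in exposed livers (-1.12 ± 0.23). Its neighbour Cyp2c68 had 2177, 2066, 1756 and 2650 against 1232, 1426, 1359 and 1420 (-0.66 ± 0.14). Neither pair of groups overlapped. Cyp2f2, a periportal enzyme, was at 2693, 3191, 1571 and 3542 against 749.6, 1472, 1021 and 1488 (-1.21 ± 0.29). Cyp4a10, a fatty acid hydroxylase that PPARA induces, was at 9908, 4452, 3946 and 7502 against 2707, 2660, 3669 and 1545, with Exposed 3 close beneath Control 3 (-1.25 ± 0.33). Cyp1a1, the classical target of the aryl hydrocarbon receptor, was read at low levels, 32.1, 14.4, 43.0 and 34.5 in controls and 9.01, 7.85, 4.18 and 11.8 in exposed livers. It was chosen after its values were seen, and its groups did not overlap (-1.77 ± 0.45). Vitamin A handling held another separated gene, Rbp2, an intracellular retinol-binding protein, with 317, 387, 412 and 274 against 180.1, 165, 207 and 84.4 (-1.18 ± 0.27). Of the 33 retinoid genes, 22 were lower and 11 higher (median -0.20, -0.12 without Control 1), and the unadjusted threshold was met by 11 lower genes (33.3% against 8.36% of all genes) and 2 higher genes (6.06% against 6.14%).

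**Figure D2:**
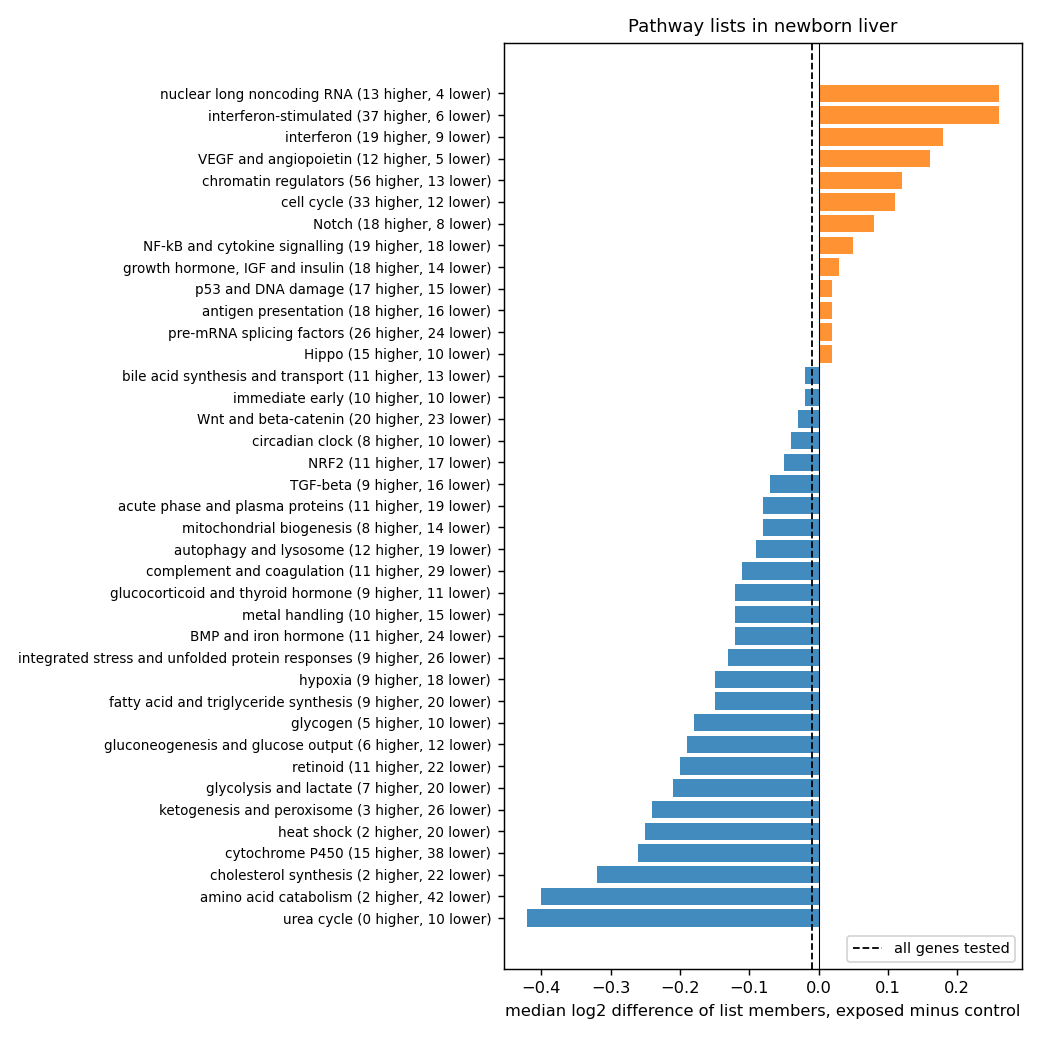
Median log2 difference (exposed minus control) of each of 39 pathway lists, with the number of members higher and lower, and a dashed line at the median of all genes tested (-0.01). Amino acid catabolism and the urea cycle sit lowest at -0.40 and -0.42, and interferon-stimulated genes and nuclear long noncoding RNAs highest at 0.26.

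Transcription factors differed by small amounts. Of 532 factor genes collected by list or family symbol, 320 were higher and 212 lower (median 0.08), and the unadjusted threshold was met by 41 higher genes (7.71%, near the 6.14% of all genes; 18 without Control 4, 75 without Control 2) and 16 lower genes (3.01% against 8.36%; 26 without Control 1, 10 with libraries scaled to the same total). Hhex, a homeobox factor needed for liver budding and hepatocyte differentiation, had 1297, 1054, 1399 and 1727 counts in controls and 836, 931, 969 and 781 in exposed livers. All exposed livers lay lower (-0.62 ± 0.15). Cebpa, a master factor of hepatocyte metabolism, was at 2920, 3335, 4572 and 5948 against 2612, 2878, 2650 and 2758. The exposed livers lay in a narrow band just under Control 1, while Controls 3 and 4 were much higher (-0.57 ± 0.20). Rxra, the partner of most metabolic nuclear receptors, had 5149, 3551, 4571 and 5780 against 3302, 3355, 3511 and 3360, again a narrow band beneath all controls (-0.47 ± 0.15). Hnf4a, the central hepatocyte nuclear receptor, overlapped, with 4752, 3934, 5454 and 7205 against 3649, 3597, 3654 and 4819 (-0.42 ± 0.19). Foxa2 gave -0.21 ± 0.21. In the other direction Onecut2, a factor of hepatoblasts and bile ducts, had 2159, 2975, 3449 and 3213 against 3921, 3928, 3721 and 3905, with all exposed livers above all controls (0.41 ± 0.15). The whole list of 35 hepatocyte factors was divided, with 20 higher and 15 lower (median 0.04). At the unadjusted threshold it held 3 higher genes (8.57% against 6.14% of all genes) and 4 lower genes (11.4% against 8.36%). Of 37 nuclear receptors 26 were higher and 11 lower (median 0.09). Among the lower factors of lowest p, Zfp422, Zfp106 and Zfp597, zinc finger proteins, gave -0.52 ± 0.14, -0.38 ± 0.11 and -0.54 ± 0.17, and Sox12 gave -0.32 ± 0.12. None of these 4 genes had overlapping groups.

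Factors of endothelium were higher in 17 of 26 cases, and 6 of them met the unadjusted threshold, none in the lower direction (23.1% against 6.14% of all genes). Bcl6b, a repressor found mainly in endothelial cells, had 101, 92.2, 109.9 and 127 counts in controls and 183, 148, 185 and 218 in exposed livers. The groups did not overlap (0.76 ± 0.18). Maf, a factor that specifies sinusoidal endothelium, was at 2308, 2998, 2737 and 2345 against 3882, 3694, 3769 and 2895, where Exposed 4 alone was within the control range (0.45 ± 0.14). Sox17, an arterial factor, was at 126, 234, 176 and 140.4 against 285, 207, 303 and 218, with 2 exposed livers inside the control range (0.60 ± 0.22). Mef2a gave 0.38 ± 0.13 without overlap, and Lyl1, shared by endothelium and blood progenitors, gave 0.53 ± 0.17. Etv6, a repressor needed for blood stem cells, had 731, 877, 781 and 659 against 1012, 944, 1061 and 912 (0.37 ± 0.12), and Klf10, a factor induced by TGF-beta, gave 0.78 ± 0.24 with overlap. Zfp335 and Zfp384, both zinc finger regulators, gave 0.49 ± 0.13 and 0.32 ± 0.10, each with all exposed livers above the controls.

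**Figure D3:**
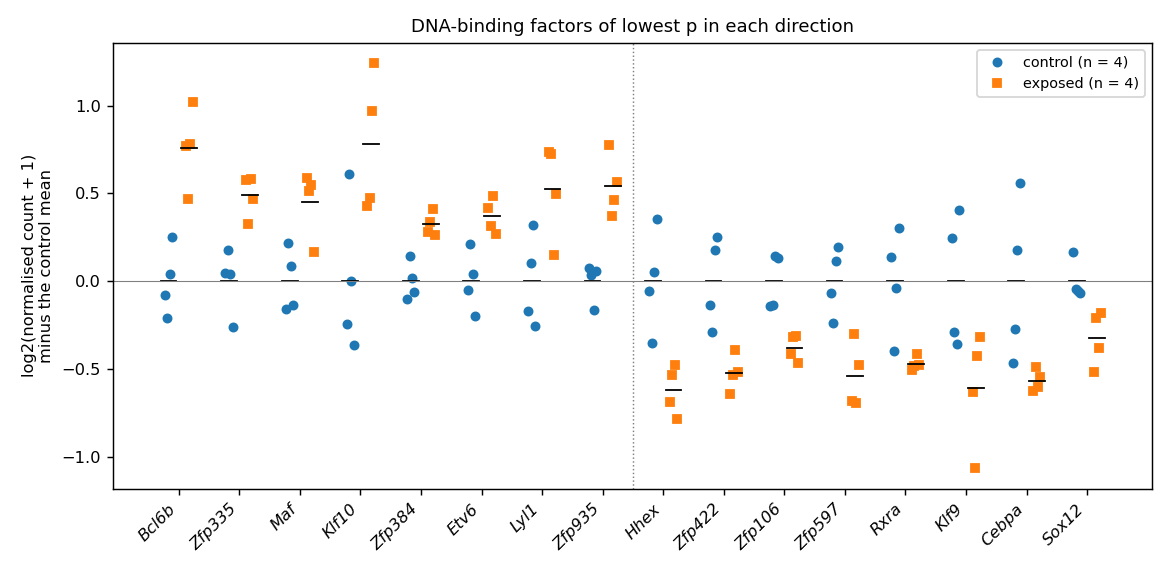
Values of 16 DNA-binding factors in each library, as log2(normalised count + 1) minus the control mean, with a line at each group's mean. The left 8 factors are higher in exposed livers, led by Bcl6b at 0.76 and Klf10 at 0.78; the right 8 are lower, led by Hhex at -0.62 and Klf9 at -0.61.

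In the list of VEGF and angiopoietin ligands and receptors, 12 of 17 genes were higher (median 0.16, 0.08 without Control 1, 0.10 without Control 4), and 4 met the unadjusted threshold, all higher (23.5% against 6.14% of all genes; 2 without Control 3, Exposed 2 or Exposed 3). Flt1, a VEGF receptor, had 772, 719, 679 and 693 counts in controls and 1004, 929, 859.6 and 1063 in exposed livers, with no overlap (0.43 ± 0.11). Kdr, the main signalling receptor for VEGF-A, did not share this, with 1223, 1088, 1070 and 1184 against 1079, 1061, 1196 and 1131 (-0.03 ± 0.10). Tek, the angiopoietin receptor, gave 0.35 ± 0.15 and Nrp1, a VEGF co-receptor, gave 0.44 ± 0.18. Stab2 and Stab1 are scavenger receptors of the sinusoid. Stab2 had 3209, 3748, 3160 and 2956 counts in controls and 5313, 4948, 5104 and 5164 in exposed livers, with a narrow exposed group above all controls (0.66 ± 0.11). Stab1 had 3227, 3268, 2497 and 3255 against 3712, 3472, 5083 and 4595, with every exposed liver above every control (0.45 ± 0.15). Dab2, an endocytic adaptor, was at 961, 1033, 1056 and 809 against 1566, 1359, 1378 and 1537 (0.60 ± 0.12). The 23 sinusoidal markers summed to 23547 to 25748 counts in controls and 27358 to 31835 in exposed livers. The sums did not overlap, but the mean log2 level of the list did, at 9.50 to 9.64 in controls and 9.61 to 9.87 in exposed livers, and so did its share of reads, at 0.096% to 0.121% and 0.119% to 0.148%. Of the 23 markers 8 had the lower mean in exposed livers, and Lyve1, a defining marker, was level (0.04 ± 0.18). Wnt2, a ligand that sinusoidal cells supply to hepatocytes, had 69.0, 70.2, 82.2 and 85.4 against 94.9, 129, 92.7 and 108, with no overlap (0.46 ± 0.19). Over the whole Wnt list 20 genes were higher and 23 lower (median -0.03). Its nuclear effector Ctnnb1 gave -0.29 ± 0.12 and its receptor Fzd7 -0.63 ± 0.22. In the Notch list 18 of 26 genes were higher (median 0.08), or 14 without Control 3. That median was 0.02 without Control 1 and 0.14 without Control 2. The receptor Notch1 was at 512, 509, 414 and 453 against 565, 548, 616 and 536 (0.27 ± 0.12).

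Interferon-stimulated genes were higher in 37 of 43 cases (median 0.26, 0.13 without Control 4), and 8 met the unadjusted threshold, all higher (18.6% against 6.14% of all genes). This number was 2 without Control 4, 2 without Exposed 3 and 4 without Exposed 2. Promoters of these genes are known to carry the interferon-stimulated response element (ISRE), and the windows of 4 members are shown because they hold it. Each is the 120 bases before the RefSeq gene start on GRCm38.p6, read 5′ to 3′ on the gene's strand, and capitals mark the element, GAAA followed by any 2 bases and a second GAAA, or its reverse complement.
Irgm2, chr11:58214857-58214976, plus strand: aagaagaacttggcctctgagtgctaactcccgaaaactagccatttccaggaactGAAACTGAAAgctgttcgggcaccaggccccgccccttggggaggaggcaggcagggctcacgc
Gbp7, chr3:142530216-142530335, plus strand: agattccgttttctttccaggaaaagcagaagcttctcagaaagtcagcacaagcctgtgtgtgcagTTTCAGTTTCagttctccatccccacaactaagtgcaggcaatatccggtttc
Trim30a, chr7:104465194-104465313, minus strand: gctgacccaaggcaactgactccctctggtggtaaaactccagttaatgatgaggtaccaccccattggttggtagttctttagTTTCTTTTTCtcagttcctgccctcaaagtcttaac
Ifit1, chr19:34640769-34640888, plus strand: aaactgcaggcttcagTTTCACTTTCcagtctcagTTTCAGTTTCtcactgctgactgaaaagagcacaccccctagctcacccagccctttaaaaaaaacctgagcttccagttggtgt
The element, searched on both strands of the 300-base RefSeq promoters, was found in 17 of the 31 interferon-stimulated genes with a promoter sequence (54.8%) and in 407 of 10656 promoters of all tested genes (3.82%). Over those 407 genes the median difference was 0.02, and 6.39% were higher and 7.62% lower at the unadjusted threshold, near the shares of all genes. The match describes letters in these windows and shows no binding.

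Irgm2, a GTPase that acts on membranes of vacuoles holding pathogens, had 1410, 1312, 1788 and 1310 counts in controls and 1969, 2124, 1815 and 2485 in exposed livers. Exposed 3 passed the highest control only narrowly (0.53 ± 0.14). Trim30a, a regulator of innate signalling, had 762, 838, 814 and 472 against 1009, 980.1, 951 and 874, where Control 4 was the lowest and no groups overlapped (0.43 ± 0.17). Gbp7, a guanylate-binding protein, was at 1004, 1128, 862 and 740.4 against 939, 1622, 1613 and 1968, with Exposed 1 among the controls (0.68 ± 0.22). Ifit1, which holds 2 elements, was at 172, 158, 260.0 and 73.0 against 169.7, 232, 297 and 191 and overlapped (0.53 ± 0.34). Control 4 was thus the lowest liver for Trim30a, Gbp7 and Ifit1. The list's mean log2 level in Controls 1 to 4 was 8.48, 8.18, 8.34 and 7.68, and in Exposed 1 to 4 it was 8.20, 8.60, 8.70 and 8.38. Upstream, the factor Irf1 gave 0.37 ± 0.16. Ifngr2, a chain of the interferon gamma receptor, went the other way, with 584, 692, 613 and 591 against 456, 559.8, 514 and 459 (-0.32 ± 0.12).

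Antigen presentation as a list was balanced, at 18 higher and 16 lower of 34 genes (median 0.02), despite the level of Nlrc5. The immunoproteasome subunits gave 0.56 ± 0.19 for Psmb8, 0.63 ± 0.27 for Psmb9 and 0.40 ± 0.16 for Psmb10, in each case with at least Exposed 1 inside the control range. The class I heavy chain H2-K1 and the light chain B2m gave 0.09 ± 0.22 and 0.08 ± 0.14. Chemokines were among the higher genes of the NF-kB and cytokine list, in which 5 of 37 genes were higher (13.5% against 6.14%) and 1 lower at the unadjusted threshold (9 higher without Control 1 and with libraries scaled to the same total). Cxcl1, which draws neutrophils, had 49.1, 91.4, 163 and 194 counts in controls and 204, 194, 500.4 and 469.9 in exposed livers, and Exposed 2 was level with Control 4 (1.50 ± 0.47). Cxcl10, induced by interferon, had 62.3, 88.0, 59.3 and 81.3 against 94.2, 191, 114 and 113 (0.78 ± 0.25). Nfkb2, a subunit of the noncanonical pathway, had 189.9, 235, 192 and 223 against 294, 301, 325 and 294 (0.53 ± 0.13). Neither of these last genes overlapped between groups. Socs3, a feedback inhibitor of cytokine signalling, was also separated, with 258, 271, 250.4 and 254 against 299, 329, 361 and 457 (0.47 ± 0.15).

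Chaperones were lower with few exceptions. In the heat shock list 20 of 22 genes were lower (median -0.25, -0.16 without Control 3), and 9 met the unadjusted threshold, all lower (40.9% against 8.36% of all genes; 5 without Control 3). Hspd1, the mitochondrial chaperonin, had 8513, 6142, 10303 and 10829 counts in controls and 5274, 5542, 5649 and 5393 in exposed livers. Its exposed values formed a tight group under the lowest control, Control 2 (-0.68 ± 0.17). Hspa9, the import chaperone of the same organelle, was at 12935, 9237, 18269 and 16363 against 8134, 8315, 8812 and 9215 (-0.68 ± 0.20). Cytosolic members behaved alike in direction: Hspa8 had 9323, 9986, 9465 and 11134 against 6587, 7959, 8351 and 7436 (-0.40 ± 0.13), and Hsp90ab1 gave -0.35 ± 0.13, both without overlap. Nuclear regulators of mitochondrial biogenesis stood at 8 higher and 14 lower of 22 genes (median -0.08), with 4 lower (18.2% against 8.36%; 1 without Exposed 1) and 0 higher at the unadjusted threshold. Of these Tfam, which packages mitochondrial DNA, had 906, 855, 1048 and 1219 against 637, 787, 778 and 830.0 with no overlap (-0.40 ± 0.14). In the unfolded protein and integrated stress list 26 of 35 genes were lower (median -0.13). The unadjusted threshold was met by 4 lower genes (11.4% of the list against 8.36% of all genes). Without Control 3 that list stood at 18 higher and 17 lower (median 0.02), and no lower gene met the threshold without Control 3 or without Control 4. Its factors Atf4 and Ddit3 gave -0.02 ± 0.14 and 0.41 ± 0.25, and Phgdh, the first enzyme of serine synthesis, gave -0.78 ± 0.28.

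Genes tied to metals gave a mixed picture. Of 25 genes for metal handling, 10 were higher and 15 lower (median -0.12, -0.20 without Control 1 and -0.07 without Control 3). At the unadjusted threshold 4 were lower (16.0% against 8.36%) and 1 higher (2 lower when libraries were scaled to the same total). Slc39a8, a zinc and manganese importer that also carries cadmium, had 922, 856, 860.2 and 943 counts in controls and 678, 803, 735 and 743 in exposed livers. The groups did not overlap (-0.28 ± 0.10). Slc39a4, a zinc importer, was at 483, 554, 575 and 629 against 314, 420.3, 496 and 300.3, with Exposed 3 just above Control 1 (-0.57 ± 0.17). Atp7a, a copper-exporting pump, was at 124, 118, 92.7 and 104 against 222, 171, 129 and 156, all exposed livers being higher (0.60 ± 0.20). Slc40a1, the iron exporter ferroportin, had 4303, 4409, 5647 and 5907 against 2980, 4296, 3670 and 3319. The nearest values were Exposed 2 and Control 1 (-0.51 ± 0.16). Hamp, the iron hormone that degrades ferroportin, overlapped widely (-0.19 ± 0.35). Hmox1, which breaks down heme and is a target of NRF2, had 1277, 1053, 1196 and 1408 against 952, 954, 894 and 946, with every exposed liver lower (-0.39 ± 0.11). The NRF2 list stood at 11 higher and 17 lower genes (median -0.05, 0.01 with libraries scaled to the same total). At the unadjusted threshold this list held 4 lower genes (14.3% against 8.36% of all genes) and 1 higher gene (3.57% against 6.14%). After Hmox1 its members of lowest p were Gsta3 and Gstm1, glutathione transferases, and Prdx1, a peroxidase, at -0.69 ± 0.22, -0.42 ± 0.18 and -0.51 ± 0.18, all with overlap. Nqo1, a quinone reductase, gave 0.04 ± 0.25, and Gclc, which starts glutathione synthesis, gave 0.25 ± 0.12.

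The growth hormone, p53 and clock lists were near balance in the direction of their members. Groups that did not overlap were found for 3 of 32 p53 genes, all lower (9.38% against 4.82% of all genes). The growth hormone list held 1 higher and 1 lower separated gene, and the clock list 1 lower (5.56%). In the list of growth hormone, IGF and insulin genes 18 of 32 were higher (median 0.03). Igf1 gave -0.08 ± 0.27 and overlapped widely. Of the p53 list 17 genes were higher and 15 lower (median 0.02), and its target Ccng1 had 393, 510.3, 405 and 456 against 301, 287, 391 and 279, with Exposed 3 just under Control 1 (-0.49 ± 0.15). Cry1, a repressor of the circadian clock, was at 402, 314, 396 and 365 against 301, 160.4, 190.5 and 232, with no overlap (-0.77 ± 0.19). The clock list itself had 8 higher and 10 lower genes (median -0.04), a sign that changed with other settings. The autophagy and lysosome list leaned lower, at 12 higher and 19 lower of 31 genes (median -0.09), and 9 lower genes (29.0% against 8.36% of all genes) and 1 higher gene met the unadjusted threshold, with 6 lower without Control 1, Control 4 or Exposed 1, 2 or 4 and with libraries scaled to the same total. Atg5, needed for autophagosome growth, gave -0.44 ± 0.12 without overlap. Ulk1, the kinase that starts autophagy, had 2407, 1510, 1533 and 1926 against 2141, 2470, 2954 and 3000, with overlap between Control 1 and Exposed 1 (0.53 ± 0.17). The lysosomal protease Ctss gave -0.61 ± 0.19.

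Chromatin regulators were higher in 56 of 69 cases (median 0.12), and the unadjusted threshold was met by 11 higher genes (15.9% against 6.14% of all genes) and 1 lower gene (3 to 7 higher under 9 alternatives, with the fewest without Exposed 1). Kmt2a, a histone H3 methyltransferase, had 1170, 1293, 1100 and 1022 counts in controls and 1548, 1332, 1475 and 1723 in exposed livers. Exposed 2 was the closest to the controls and still above them (0.41 ± 0.12). Chd6, a chromatin remodeller, gave 0.40 ± 0.14 without overlap, and Chd9 gave 0.42 ± 0.14. Hdac2, a histone deacetylase, was the lower gene, at 971, 1023, 1286 and 1090 against 815, 903, 745 and 810.0 (-0.41 ± 0.12). Members of this list are long, with a median span of 75.1 kb against 23.9 kb over all genes tested, and the part of length in their direction was not tested. Of 17 nuclear long noncoding RNAs 13 were higher (median 0.26). Dleu2 had 1227, 1275, 1154 and 948 against 1808, 1598, 1454 and 1489, with no overlap (0.47 ± 0.13), whereas Neat1 had 3203, 17005, 11125 and 8422 against 13307, 14452, 18918 and 9962. Control 1 held the lowest Neat1 level of the 8 livers by a wide margin (0.71 ± 0.45). Splicing factors were balanced, at 26 higher and 24 lower of 50 genes.

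Markers of the cell types in newborn liver were then compared by library. Alb, the main hepatocyte product and a check of the tissue label, was at 911085, 742072, 1129420 and 1372214 counts in controls and 592405, 971047, 605391 and 949082 in exposed livers, abundant in every library. Late erythroid genes were higher in all 26 cases (median 0.36, 0.18 without Control 2), yet Exposed 3 lay at the control level and Control 2 was the lowest. Kel, a red cell surface protein, had 3631, 2617, 4145 and 3254 counts in controls and 8269, 5406, 3519 and 6765 in exposed livers (0.76 ± 0.25). Platelet and megakaryocyte genes were lower in 16 of 17 cases (median -0.35, -0.17 with the late erythroid mean as a covariate). Thbs1, a platelet granule protein, had 1706, 1908, 2765 and 2434 against 1004, 1186, 1775 and 1190 (-0.78 ± 0.20), and Tubb1, platelet tubulin, 232, 223, 436 and 373 against 148, 150.0, 302 and 142 (-0.78 ± 0.29). Exposed 3 was again at the control level for both, and the other exposed livers were lower. The defining megakaryocyte integrin Itga2b gave -0.06 ± 0.21. Cell cycle genes were higher in 33 of 45 cases (median 0.11), but the median was -0.20 with the late erythroid mean as a covariate and its sign also changed without Control 2.

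Kupffer cell and macrophage markers were lower in 15 of 20 cases (median -0.17, -0.11 with libraries scaled to the same total), and 5 met the unadjusted threshold, all lower (25.0% against 8.36% of all genes; 8 without Control 2, 3 without Control 3). Cd163, the receptor for haptoglobin-bound hemoglobin, had 71.8, 45.7, 51.6 and 44.3 counts in controls and 13.9, 32.3, 18.4 and 20.0 in exposed livers, with no overlap (-1.33 ± 0.32). The defining markers Clec4f, Timd4 and Adgre1 gave -0.43 ± 0.22, -0.10 ± 0.20 and 0.00 ± 0.14, all with overlap. Hmox1 and Slc40a1, described above, are also in this list. Early B cell genes included Igll1, part of the surrogate light chain, at 175, 149, 142 and 116 against 55.4, 64.5, 32.6 and 85.3 without overlap (-1.34 ± 0.29). Its partner genes Vpreb1 and Vpreb3 gave -0.61 ± 0.25 and -0.48 ± 0.21, and the mature chain Cd79a gave -0.41 ± 0.22. Over the 13 B cell genes 9 were lower (median -0.18), which turned to 0.11 without Exposed 1 and to 0.03 without Control 1. Of 11 hepatoblast and fetal hepatocyte genes 6 were higher and 5 lower (median 0.02, a sign that changed under other settings). The unadjusted threshold was met by 1 lower gene (9.09%, near the 8.36% of all genes). That gene was Dlk1. Dlk1, a membrane protein related to the Notch ligands, had 789.6, 1613, 1325 and 1860 against 1068, 621, 555 and 675 (-0.91 ± 0.28). Only Exposed 1 lay within the control range. Alb and Afp, the main plasma proteins of adult and fetal liver, gave -0.42 ± 0.27 and 0.02 ± 0.28.

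Markers of capsule, connective tissue and muscle separated the control livers from each other more than from the exposed livers. Mesothelial markers had a mean log2 level of 6.13, 8.67, 6.37 and 8.28 in Controls 1 to 4 and 6.88, 6.95, 7.66 and 6.92 in Exposed 1 to 4. Controls 2 and 4 were high and Controls 1 and 3 low. Msln, mesothelin, had 20.8, 529, 31.5 and 232 counts in controls and 32.6, 44.5, 82.7 and 71.7 in exposed livers. Col1a1, the main fibrous collagen, was at 386, 2948, 589 and 5034 against 2865, 1353, 949.9 and 1099, with the same 2 controls and Exposed 1 high. Mylpf, a light chain of fast skeletal muscle, had 92.6, 6015, 72.6 and 95.2 against 121, 88.1, 93.6 and 105, and the muscle list summed to 123, 6150, 101 and 147 counts in controls and 126 to 157 in exposed livers. Control 2 alone was high, and Mylpf gave 6015 of its 6150 counts. Only 2 of the 13 genes in the muscle list could be measured. None of the markers of fat or yolk sac globins looked for was among the listed genes, so neither could be measured. The number of genes with separated groups was higher without Control 2, as given above, but it also rose when any other single liver was left out.

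**Figure D4:**
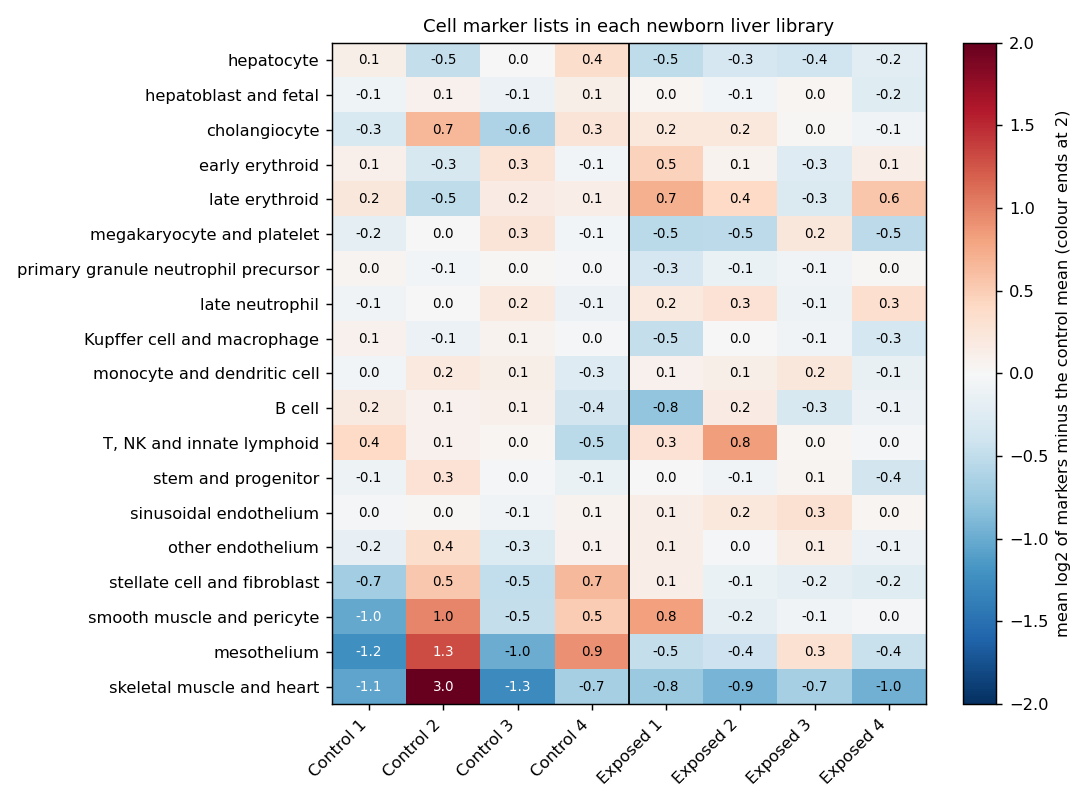
Mean log2 level of each cell marker list in each library, minus the mean of the 4 controls (red higher, blue lower; colours end at 2). Mesothelium, smooth muscle and stellate rows alternate between Controls 1 and 3 and Controls 2 and 4. The muscle row, which holds 2 genes, is high in Control 2, and the megakaryocyte row is low in Exposed 1, 2 and 4.

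Spread between livers was larger among controls. The SD of the log2 values was larger in controls for 9315 of 14059 genes (66.3%), with median SDs of 0.266 and 0.205. Leaving out Control 2 brought this to 7871 genes (56.0%), and leaving out Exposed 3 to 10122 (72.0%). The mean distance of a library to the others of its group (1 minus Spearman's rho over genes) was 0.0343, 0.0393, 0.0282 and 0.0309 in controls and 0.0216, 0.0179, 0.0228 and 0.0198 in exposed livers. Every control was farther from its group than every exposed liver, with a two-sided exact permutation p of 0.0286. That is the smallest p that 4 against 4 allow, and the adjusted p was 0.143 over 5 library measures. The permutation exchanged the distances between groups without computing them anew. Each pair of livers enters the distances of both, so the distances are not independent and this p is only a rough guide. Without Exposed 2 the exact p was 0.0571. The other 4 measures overlapped: total reads, the number of genes at 0, the share of reads in the 20 most abundant genes and the mitochondrially encoded share, the last at 17.5%, 12.2%, 15.1% and 4.88% in controls and 8.98%, 18.8%, 13.9% and 18.3% in exposed livers.

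The larger spread in controls was not shared by every cell list. Mesothelial genes had median SDs of 1.49 in controls and 0.503 in exposed livers, and stellate cell genes 0.51 and 0.244. Platelet genes went the other way, with only 1 of 17 genes more variable in controls (median SDs 0.25 and 0.392), as did B cell genes, with 3 of 13 (0.279 and 0.53). On the first 2 principal components the exposed livers lay within the range of the controls: on the first (25.6% of variance) Control 2 was at 33.38 and the other controls at -19.9, -25.98 and -38.96, with exposed livers from -0.84 to 23.25. On the third (16% of variance) Exposed 1 and 4, at 21.46 and 22.6, lay beyond the highest control at 13.45.

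**Figure D5:**
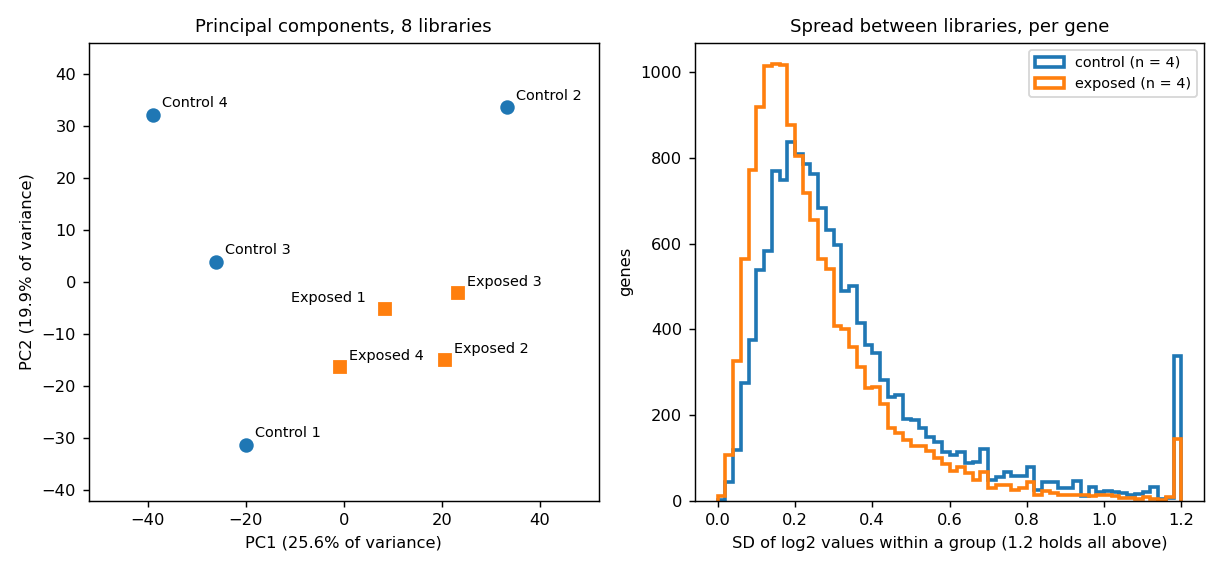
Left, the 8 libraries on the first 2 principal components, with controls as circles and exposed livers as squares. Right, the number of genes at each within-group SD of log2 values; the control curve is shifted to larger SDs, with medians of 0.266 and 0.205.

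Some genes were near 0 in some livers and abundant in others, in both groups. The pseudogene Rpsa-ps10 had 4452, 8.46, 3879 and 7.39 counts in controls and 12.5, 3135, 3402 and 6.35 in exposed livers, where 4 livers were high and 4 low, 2 of each in each group. Reads of such a copy can be shared with its parent gene, so its level is uncertain. Prss22, a serine protease, had 778, 20.3, 3.82 and 0 against 0.69, 835, 2.51 and 788, with 1 high control and 2 high exposed livers. Sult3a1, a sulfotransferase, had 2.83, 11.8, 27.7 and 1114 against 24.9, 680.2, 16.7 and 685, highest in Control 4 and in Exposed 2 and 4. Fgf21, a fasting hormone of the liver that was chosen after its values were seen, ranged from 4.72 in Control 1 to 1420 in Control 3 and was 145, 189, 1088 and 914 in exposed livers. Such genes carried large standard errors, for example 1.40 ± 2.95 for Prss22.

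Genes whose single deviating liver lay in the exposed group were found when livers were left out one at a time. Without Exposed 3, limma called 4 genes at an adjusted p under 0.05, Dio1 and Ahcy (both above) and Trim34a and Ftl1-ps1, and without Exposed 4 it called Gm765. These last 3 were named after their values were seen. Leaving out the exposed liver that lies closest to the controls favours a call, so these calls are no added support for a difference. Trim34a, a neighbour of Trim6 in the Trim cluster of chromosome 7, had 12.3, 14.4, 12.4 and 14.8 counts in controls and 180.1, 118, 10.03 and 78.0 in exposed livers. Ftl1-ps1, a ferritin light chain pseudogene that can share reads with its parent, had 29.3, 25.4, 22.9 and 35.3 against 200.2, 172, 22.6 and 199. In both, Exposed 3 equalled the controls and the other exposed livers were several-fold higher. Gm765, an unnamed gene model, had 49.1, 63.5, 41.1 and 44.3 against 2.77, 0.87, 2.51 and 39.0, with Exposed 4 close to the controls.

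The 6 female livers at postnatal day 21 (3 control, 3 exposed to the same dose) allowed the newborn differences to be set against those at weaning. The test of the difference between ages called 2 of 14259 genes (0.014%) in limma, and both were level at birth. Pctp, the phosphatidylcholine transfer protein, had 1604, 2662, 2465 and 2302 counts in newborn controls and 1507, 2354, 2278 and 1665 in newborn exposed livers (-0.21 ± 0.20), and its effect was -2.62 ± 0.32 relative to that at day 21 (adjusted p 0.0092). Adcy1, an adenylate cyclase, had 139, 129.5, 201 and 164 against 136, 141, 130.3 and 119.7 at birth (-0.24 ± 0.18), and its effect relative to day 21 was -2.96 ± 0.39 (adjusted p 0.0106). For the separated newborn genes no difference between ages was called. Dio1 gave -3.48 at birth and -1.39 at day 21 (difference -2.09 ± 1.14, adjusted p 0.596), Nlrc5 gave 1.57 and 0.33 (1.24 ± 0.43, adjusted p 0.422), and Cyp4a31, a fatty acid hydroxylase, gave -0.83 and -0.92 (0.08 ± 0.36, adjusted p 0.957). Rbp2 was lower at birth and higher at day 21, at -1.18 and 2.07, and its difference of -3.25 ± 0.60 had an adjusted p of 0.199.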

How the data were processed

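Liver RNA was sequenced from 8 newborn and 6 weanling female CD-1 mice. Per the submitters' processing notes, FastQC, STAR and featureCounts were used with mm10. Their versions are not given in the sources used here. Deposited values were log2(normalised count + 1) per library, and a deposited signal column gave the mean over the 14 newborn and weanling libraries. The deposited fold changes and p-values were not used. The log2 values were turned back into normalised counts, and dividing by the smallest step recovered whole reads within 0.1 for 100.0% of the values checked. Newborn depth was 24424797 to 29633727 reads, so counting error is small for all but low genes. The labels do not give a strand setting, so overlapping and antisense genes cannot be told apart.

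Genes that reached 10 normalised counts in 4 or more of the 8 libraries were fitted with limma 3.58.1 (R 4.3.3, trend and robust), exposed against control, with Benjamini-Hochberg adjustment over all of them. The difference between ages was an interaction term over 14 libraries, which were taken as independent. Unexplained codes in the labels begin with the same number for some newborn and weanling livers. Whether these livers share a dam is not given, and no such link was modelled. The program was tested on simulated data. Named genes were the 20 of lowest p, the 12 highest and 12 lowest differences, up to 4 members of lowest p per list plus members a role needs, the 8 factors of lowest p in each direction, the 12 most variable genes and the 8 of lowest interaction p. Members and lists were chosen with earlier results of these data known. The samples were not paired by replicate number, because the labels do not say that a number is shared between groups. Same-numbered livers correlated at -0.06, 0.12, -0.08 and 0.13 in their deviations, and other pairs at -0.27 to 0.19. These values cannot decide whether the samples were paired. Alternatives changed the scaling, filter, pseudocount, model, samples, block, covariate and replicates. Gene positions are from GENCODE vM21 and promoters from RefSeq. A few genes that the naming rule or the lists hold are not reported here.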

Additional observations from a re-analysis of the deposited data

Results flagged for a closer look

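In groups of 4 livers, 24 of 336 groups tested held a liver far from the other 3 (Dixon's criterion), where chance gives about 1 in 20. That rate is only a rough guide, because genes were chosen in part for their values and share the same livers. No cause was tested. Control 1 stood apart for G6pc, high at 18670 normalised counts, for Cd79a and Sox12, high at 380 and 685, and for Fzd7, Igf1 and Scd2, low at 92.6, 3393 and 755. Control 2 stood apart for the muscle gene Mylpf at 6015 and for Pdk4 at 1029, both high. Stab1 and Gm42711 were low in Control 3 at 2497 and 73.6, and Trim30a was low in Control 4 at 472.

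Exposed 1 was low for Gclc (2420), Gsta3 (2479), Psmb10 (1139) and Slc37a2 (18.0). Exposed 2 was low for Ddit3 (762). Exposed 3 was low for Cyp2c69 (1478), Ftl1-ps1 (22.6), Hmox1 (894) and Onecut2 (3721), and high for the platelet genes Itga2b (3988) and Tubb1 (302). Exposed 4 was low for Maf (2895) and high for Hnf4a (4819).

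The effect of exposure differed between newborn and weanling livers by the interaction test for Pctp, by -2.62 on the log2 scale, and for Adcy1, by -2.96. In both genes the newborn groups were close and the exposed weanling livers were higher than the weanling controls.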

How the results depend on the processing

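The number of adjusted calls was 0 in the fit used above and under the alternatives run, other than 4 without Exposed 3 and 1 without Exposed 4. Leaving out 1 liver, the unadjusted sets ranged from 446 to 1422 (higher) and 662 to 1803 (lower), against 714 lower with libraries scaled to the same total. Separated genes ranged from 484 to 1154 higher and 751 to 1799 lower, a rise that fewer livers bring by themselves. With the replicate number as a block, limma gave 0 adjusted calls, with 940 higher and 1087 lower genes at the unadjusted threshold, so no count moved by over 1.5 times. Not every liver correlated best with its own number. The 2 calls of the age test became 4 with equal totals, 4 without trend and robust, 0 after quantile normalisation, and 2 to 4 when 1 newborn liver was left out. The exact p of the within-group distance, with the limit given above, was 0.0286 to 0.0571 when 1 liver was left out. Of 1188 recomputed list medians 10 moved by over 1 SD and 73 changed sign. 

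Of 163 named genes none was called at an adjusted p under 0.05 in the fit used above. Some differences changed sign when 1 liver was left out, with these lowest and highest values: Abcb11 (-0.06 to 0.21), Adgre1 (-0.09 to 0.07), Afp (-0.14 to 0.21), Atf4 (-0.08 to 0.07), B2m (-0.01 to 0.16), Col1a1 (-0.54 to 0.70), Fasn (-0.01 to 0.28), Fgf21 (-0.77 to 1.89), Foxa2 (-0.35 to 0.00), H2-K1 (-0.01 to 0.28), Hamp (-0.47 to 0.11), Igf1 (-0.25 to 0.23), Itga2b (-0.25 to 0.04), Kdr (-0.06 to 0.00), Lyve1 (-0.15 to 0.14), Msln (-1.53 to 0.01), Mylpf (-1.89 to 0.23), Nqo1 (-0.13 to 0.23), Pck1 (-0.56 to 0.05), Rpsa-ps10 (-1.60 to 1.44), Srebf1 (-0.20 to 0.14) and Timd4 (-0.24 to 0.06). After quantile normalisation the reversed differences were Adgre1 0.00, Afp -0.22, Atf4 0.06 and Srebf1 0.04. With the late erythroid covariate the reversed differences were Afp -0.25, H2-K1 -0.04, Hamp 0.13, Igf1 0.04, Itga2b 0.16, Msln 0.08, Nqo1 -0.27, Rpsa-ps10 0.44 and Timd4 0.09. With libraries scaled to the same total the reversed differences were Atf4 0.04, Kdr 0.02 and Srebf1 0.05. With limma voom on reads the reversed differences were Rpsa-ps10 0.02 and Srebf1 0.00.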
